A study of Mus musculus with 8 samples.

Results

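The Hox genes of the 4 mouse clusters encode homeodomain transcription factors, and 38 of them were followed here across 8 microarrays of bone marrow LSK cells, the Lineage- c-Kit+ Sca-1+ fraction that holds blood stem cells and early progenitors. The members were chosen as genes of clusters A, B, C and D with a probe on the array, not by their values, and they are 38 of the 39 such Hox genes, out of 20660 named genes on the array. Cluster A gave 10 members, B 10, C 9 and D 9, on chromosomes 6, 11, 15 and 2. For each gene the probe with the highest mean was used.

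Hox genes lie in each cluster in the order of their paralogue numbers, and in the embryo low numbers are used towards the head and high numbers towards the tail. In the adult marrow, stem cells and progenitors express genes of clusters A and B, which are shut down as cells mature. The MLL (Kmt2a) complex keeps Hox genes active, while Polycomb complex PRC2, of which Ezh2 is the catalytic subunit, marks silent Hox genes with H3K27 methylation. Hox proteins bind DNA together with Pbx and Meis proteins, and Hoxa9 with Meis1 drives many acute leukaemias.

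The study joined a frameshift mutant of the blood transcription factor RUNX1, RUNX1S291fs, with loss of Ezh2, on a C57BL/6 background. Donor CD45.2+ haematopoietic stem cells carried Cre-ERT with either Ezh2 wt/wt or Ezh2 flox/flox, received RUNX1S291fs or an empty vector by retrovirus, and went with CD45.1+ wild-type marrow into lethally irradiated mice, after which Ezh2 was deleted. Cre-ERT, transduction and transplantation were thus shared by all CD45.2+ groups, WT included. At month 4, CD45.2+ LSK cells were pooled from 2 to 4 mice for WT (empty vector, Ezh2 wt/wt), Ezh2Δ/Δ (empty vector), RUNX1S291fs (Ezh2 wt/wt) and RUNX1S291fs/Ezh2Δ/Δ. CD45.2+ LSK cells of RUNX1S291fs/Ezh2Δ/Δ genotype also came from 1 mouse labelled MDS (myelodysplastic syndrome) and 1 labelled MDS/ML, both called moribund here and without a stated age. CD45.1+ wild-type competitor LSK cells came at month 4 from RUNX1S291fs mice and from RUNX1S291fs/Ezh2Δ/Δ mice, with pooling not stated. Each of the 8 groups was measured on 1 array, so no group has a replicate, and a comparison of 2 arrays compares those arrays. A single moribund mouse also cannot be told apart from the stage, nor fewer cells of a type from less RNA per cell.

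Levels are log2 processed signals relative to the 75th percentile of the array, so 0 is the 75th percentile and 1 unit is 2-fold; they compare arrays for 1 gene and not genes with each other. A gene was called well above background by the scanner software. Where a gene was not, its value is a bound, and a fold against it is given as at least the fold to the dimmest signal that passed this call on that array. The 75th percentile signal ran from 186 to 474 and 43.9% to 55.3% of probes were well above background, with the lowest of both in the CD45.1+ cells of RUNX1S291fs mice. The probe of Ezh2 did not show the deletion (3.10 to 4.01 on all 8 arrays), so it checks no label, and Runx1 lay at 3.04 to 5.31. The Y-linked Ddx3y was well above background in Ezh2Δ/Δ (1.74) and MDS/ML (1.57), where Xist was not, and Xist alone was on the other 6 arrays. The moribund arrays therefore hold 1 of each kind. Among sort markers, Kit was at 4.06 to 5.11 on all arrays, whereas Ly6a, which encodes Sca-1, was at 0.53 and 1.18 on the moribund arrays and 3.17 to 4.14 on the others.

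The sequences shown first are the 150 bases upstream of the annotated start of those members that fell at the moribund stage and have a promoter entry, with Hoxb4, a member that did not pass, for contrast. They are from RefSeq on build GRCm38.p6 (24 promoters for 22 of the 38 members): Hoxa2 at chr6:52164832-52164981, Hoxa3 at chr6:52213068-52213217, Hoxa5 at chr6:52204588-52204737 and Hoxa7 at chr6:52218574-52218723, all on the minus strand, and Hoxb4 at chr11:96318117-96318266 on the plus strand. Capitals mark matches on either strand to the motifs searched. For MEIS proteins the letters were TGACAG, for dimers of PBX with HOX proteins they were TGATTNAT, and for RUNX proteins they were TGNGGT. For CDX and posterior HOX proteins they were TTTATNG. The core promoter motifs were CCAAT, the letters TATAAA, and for the box bound by Sp1 the letters GGGCGG.
Hoxa2: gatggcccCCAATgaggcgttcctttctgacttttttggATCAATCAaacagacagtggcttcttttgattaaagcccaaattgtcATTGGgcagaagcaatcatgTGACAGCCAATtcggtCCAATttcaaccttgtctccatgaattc
Hoxa3: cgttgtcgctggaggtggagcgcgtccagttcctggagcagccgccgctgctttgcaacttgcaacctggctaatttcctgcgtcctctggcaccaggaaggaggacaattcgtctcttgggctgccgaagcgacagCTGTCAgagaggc
Hoxa5: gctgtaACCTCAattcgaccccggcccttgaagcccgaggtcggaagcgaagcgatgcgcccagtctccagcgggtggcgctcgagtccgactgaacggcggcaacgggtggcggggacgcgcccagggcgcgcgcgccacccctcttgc
Hoxa7: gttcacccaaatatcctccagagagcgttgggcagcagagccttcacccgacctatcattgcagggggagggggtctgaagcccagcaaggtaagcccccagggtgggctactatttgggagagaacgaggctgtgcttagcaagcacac
Hoxb4: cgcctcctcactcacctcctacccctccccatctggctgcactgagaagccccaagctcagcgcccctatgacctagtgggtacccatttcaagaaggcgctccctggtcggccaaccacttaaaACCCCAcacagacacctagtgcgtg

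Hoxa2 held a PBX-HOX match, first base 111 bases upstream of the start, a MEIS match at 44 that runs directly into a CCAAT at 38, and 3 other CCAAT matches. Hoxa3 held a MEIS match at 13, Hoxa5 a RUNX match at 144 and Hoxb4 a RUNX match at 25, while Hoxa7 held none of these letters in this window. In the full windows of 300 bases, the RUNX letters were found for 7 of 22 member genes against 45.8% of 32817 promoters, MEIS for 2 against 19.2%, PBX-HOX for 2 against 3.22% and TTTATNG for 2 against 10.9%. CCAAT was found for 15 of 22 against 37.4%, TATAAA for 4 against 13.6% and the GC box for 10 against 35.6%. Hox promoters had a median GC content of 57.7% against 52.7% over all promoters and a median of 14.5 CpG against 7. These matches describe letters, and binding was not measured.

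Only clusters A and B were broadly expressed in LSK cells, and the moribund arrays showed the fewest Hox genes. Of the 38 members, 16 were well above background in WT, 14 in Ezh2Δ/Δ, 12 in RUNX1S291fs, 13 in RUNX1S291fs/Ezh2Δ/Δ, 6 in MDS and 4 in MDS/ML. The CD45.1+ cells showed 10 in RUNX1S291fs mice, on the dimmest array, and 18 in RUNX1S291fs/Ezh2Δ/Δ mice. Over all named genes the share well above background was 64.3% in MDS and 61.8% in MDS/ML, inside the range of the other arrays (58.3% to 66.5%).

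**Figure D1:**
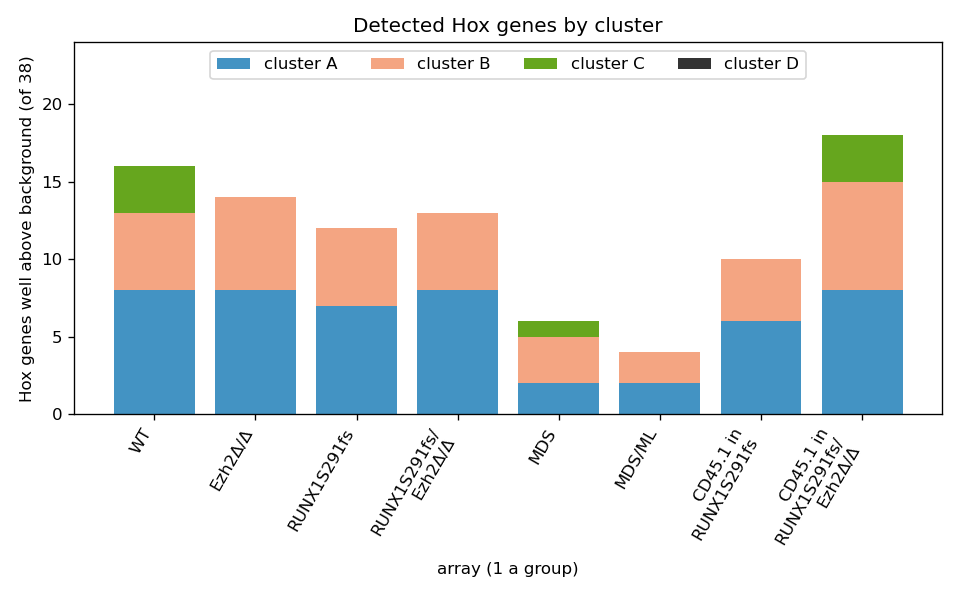
Number of Hox genes well above background on each of 8 arrays (vertical axis, of 38 members), stacked by cluster A to D, with 1 bar an array. The bars of MDS (6) and MDS/ML (4) are the shortest, and cluster D has no segment on any array.

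In all, 4 members were well above background on all 8 arrays (Hoxa7, Hoxa9, Hoxb3 and Hoxb4), 13 on 3 or more, 7 on 1 or 2 arrays and 18 on none. The 13 were Hoxa2, Hoxa3, Hoxa4, Hoxa5, Hoxa6, Hoxa7, Hoxa9 and Hoxa10 in cluster A and Hoxb2, Hoxb3, Hoxb4, Hoxb5 and Hoxb6 in cluster B. Among the members with a probe they form a continuous run in each cluster, of paralogue numbers 2 to 10 in A and 2 to 6 in B. The 18 dim members were the whole of cluster D, Hoxc5, Hoxc8, Hoxc10, Hoxc11 and Hoxc13 in cluster C, and Hoxa11, Hoxa13, Hoxb1 and Hoxb13 at the ends of clusters A and B, with values between -7.46 and -3.57. Among the 5 Evx and ParaHox genes, relatives that Polycomb also silences, none was well above background on any array.

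**Figure D2:**
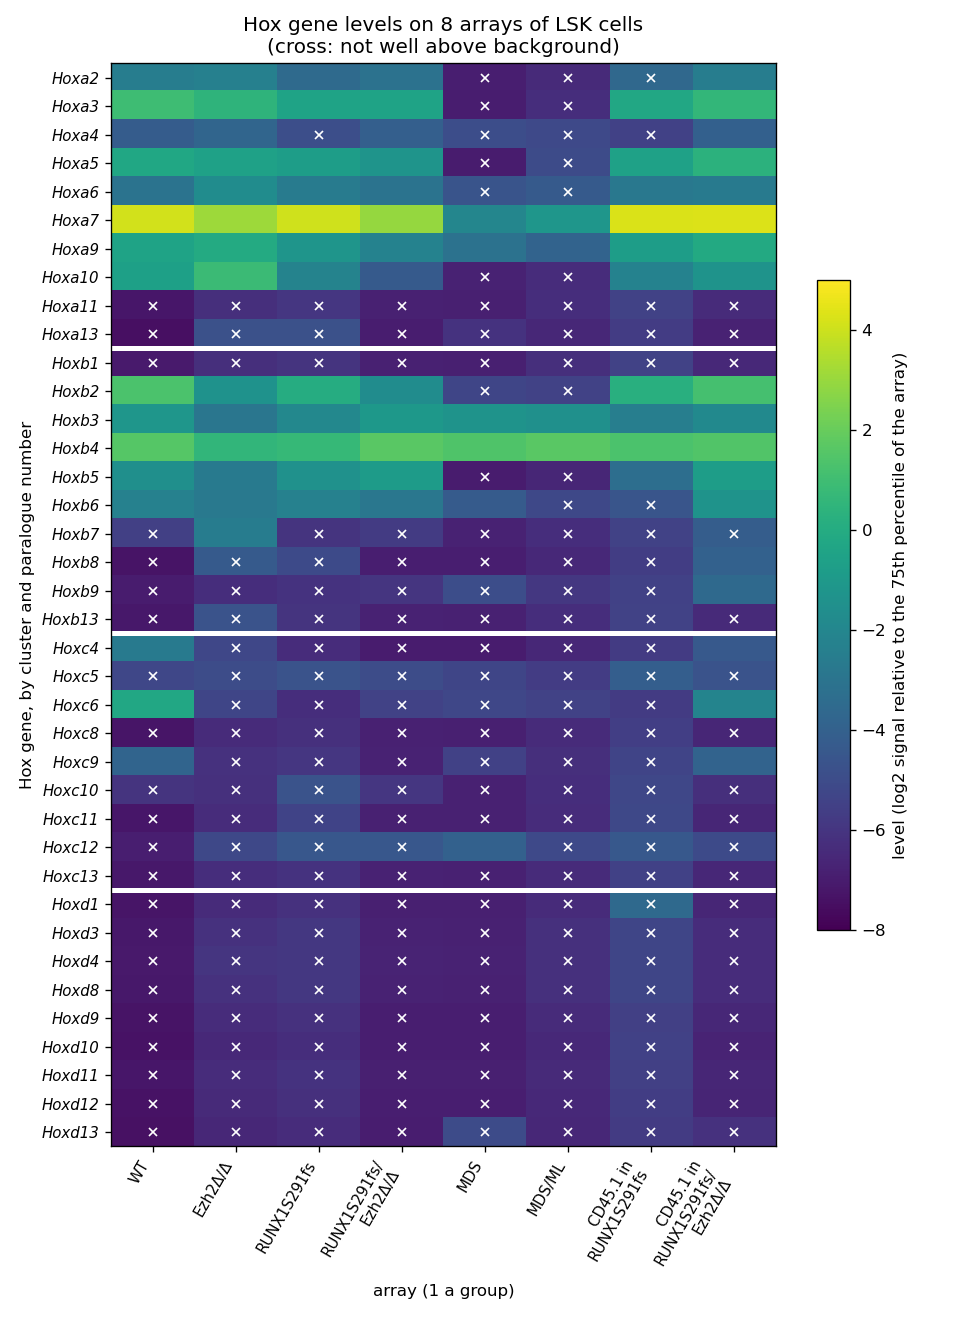
Levels (colour, log2 relative to the 75th percentile of the array) of 38 Hox genes in rows, by cluster and paralogue number, on 8 arrays in columns; a cross marks a gene not well above background, and colours compare arrays within a row. The crosses fill all 9 rows of cluster D and, in MDS and MDS/ML, most rows of cluster A.

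Of the 7 members seen on 1 or 2 arrays, 4 belong to cluster C and 3 to cluster B. Hoxc4, Hoxc6 and Hoxc9 were well above background in WT (-2.67, -0.19 and -3.81) and in the CD45.1+ cells of RUNX1S291fs/Ezh2Δ/Δ mice (-4.35, -2.13 and -3.84), and on no other array. Against WT, Hoxc6 was at least 17.2-fold lower in Ezh2Δ/Δ, at least 14.5-fold lower in RUNX1S291fs and at least 22.4-fold lower in RUNX1S291fs/Ezh2Δ/Δ. It was, however, also at least 2.55-fold lower in the CD45.1+ cells of RUNX1S291fs mice than in those of RUNX1S291fs/Ezh2Δ/Δ mice, so the 3 wild-type arrays themselves differed. Hoxb7 was well above background in Ezh2Δ/Δ alone (-2.55), Hoxb8, known as a myeloid oncogene, and Hoxb9 in the CD45.1+ cells of RUNX1S291fs/Ezh2Δ/Δ mice alone (-3.94 and -3.56), and Hoxc12 in MDS alone (-3.94). Of 32 other genes inside the clusters, 6 of them miRNA genes, 3 had a probe; the antisense gene Hoxa11os was well above background on 5 arrays (between -4.10 and -3.30) and Hoxd3os1 on none.

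In the 2 moribund mice, most detected genes of cluster A and part of cluster B lay below every month 4 array, while Hoxb4 did not. Hoxa3, Hoxa5, Hoxa2, Hoxb2 and Hoxb5 dropped out of detection there and Hoxa7 kept a signal 17.3-fold to 31.1-fold below that of the month 4 RUNX1S291fs/Ezh2Δ/Δ array. The test was an additive limma fit over all 8 arrays with terms for Ezh2 deletion, RUNX1S291fs and moribund stage (4 residual degrees of freedom), on 13545 genes that were well above background on 3 or more arrays, with Benjamini-Hochberg adjustment. It called 6 of the 13 members tested lower at the moribund stage and none higher, where 1.57% of all genes tested were called lower, 0.273% higher and 1.85% either way. The median stage effect was -3.51 over the 13 members and -0.13 over all genes tested. The filter shapes this count: only 2 arrays are moribund, so a gene seen on them alone, such as Hoxc12 in MDS, could not enter, and Hoxa2, Hoxa3, Hoxa5, Hoxb2 and Hoxb5 entered through the month 4 arrays, where they are high. With genes admitted from 1 array, 6 of 20 members were called, against 1.46% of all genes tested. With all 8 arrays required, 1 of 4 was called, Hoxa7, against 1.35% of all genes tested.

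Hoxa7 stood at 4.11 in WT, 3.10 in Ezh2Δ/Δ, 4.08 in RUNX1S291fs, 2.94 in RUNX1S291fs/Ezh2Δ/Δ, -2.02 in MDS and -1.18 in MDS/ML, and at 4.27 and 4.34 in the CD45.1+ cells of RUNX1S291fs and RUNX1S291fs/Ezh2Δ/Δ mice. Both moribund arrays lay below the other 6, with no overlap. Hoxa7, a gene of stem and progenitor cells that MLL fusion proteins activate, fell with the stage by 4.54 (SE 0.40, limma adjusted p = 0.00917). Hoxa3 stood at 0.96 in WT, 0.47 in Ezh2Δ/Δ, -0.47 in RUNX1S291fs, -0.44 in RUNX1S291fs/Ezh2Δ/Δ, -6.97 in MDS and -6.31 in MDS/ML, and at -0.21 and 0.62 in the CD45.1+ cells of RUNX1S291fs and RUNX1S291fs/Ezh2Δ/Δ mice. The moribund values were not well above background and the arrays did not overlap. Hoxa3, known for thymus and vessel development, fell by 6.20 as measured (SE 0.50, limma adjusted p = 0.00851). Against the month 4 RUNX1S291fs/Ezh2Δ/Δ array it was at least 19.0-fold lower in MDS and at least 14.5-fold lower in MDS/ML.

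Hoxa5 stood at -0.27 in WT, -0.57 in Ezh2Δ/Δ, -0.79 in RUNX1S291fs, -1.28 in RUNX1S291fs/Ezh2Δ/Δ, -7.00 in MDS and -5.05 in MDS/ML, and at -0.57 and 0.33 in the CD45.1+ cells of RUNX1S291fs and RUNX1S291fs/Ezh2Δ/Δ mice. Again both moribund values were not well above background and lay below the other 6. Hoxa5, which acts on the balance of red cell and myeloid fates, fell by 4.77 as measured (SE 0.70, limma adjusted p = 0.0228) and was at least 10.6-fold lower in MDS and at least 8.06-fold lower in MDS/ML than in RUNX1S291fs/Ezh2Δ/Δ. Hoxa2 stood at -2.51 in WT, -2.36 in Ezh2Δ/Δ, -3.50 in RUNX1S291fs, -3.10 in RUNX1S291fs/Ezh2Δ/Δ, -6.93 in MDS and -6.45 in MDS/ML, and at -3.62 and -2.48 in the CD45.1+ cells of RUNX1S291fs and RUNX1S291fs/Ezh2Δ/Δ mice. Hoxa2, a gene of hindbrain and face patterning, was dim already at month 4, and was not well above background on the moribund arrays nor in the CD45.1+ cells of RUNX1S291fs mice. Its fitted effect was -3.62 (SE 0.51, limma adjusted p = 0.0203), and it was at least 3.00-fold lower in MDS and at least 2.28-fold lower in MDS/ML than in RUNX1S291fs/Ezh2Δ/Δ.

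In cluster B, Hoxb2 stood at 1.30 in WT, -1.38 in Ezh2Δ/Δ, 0.03 in RUNX1S291fs, -1.69 in RUNX1S291fs/Ezh2Δ/Δ, -5.27 in MDS and -5.45 in MDS/ML, and at 0.21 and 1.15 in the CD45.1+ cells of RUNX1S291fs and RUNX1S291fs/Ezh2Δ/Δ mice. The moribund values were not well above background, and the Ezh2Δ/Δ and RUNX1S291fs/Ezh2Δ/Δ values came next. Hoxb2, a hindbrain gene that blood stem cells also express, had a stage effect of -3.51 (SE 0.48, limma adjusted p = 0.0194). Hoxb5 stood at -1.50 in WT, -2.69 in Ezh2Δ/Δ, -1.44 in RUNX1S291fs, -0.84 in RUNX1S291fs/Ezh2Δ/Δ, -7.01 in MDS and -6.61 in MDS/ML, and at -3.30 and -0.77 in the CD45.1+ cells of RUNX1S291fs and RUNX1S291fs/Ezh2Δ/Δ mice. Both moribund values were not well above background and lay below the other 6, which spread over 2.53 units between the CD45.1+ arrays alone. Hoxb5, a marker of long-term stem cells in the mouse, had a stage effect of -5.54 (SE 0.88, limma adjusted p = 0.0311).

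The remaining members tested did not pass. Hoxa9 stood at -0.47 in WT, -0.06 in Ezh2Δ/Δ, -1.24 in RUNX1S291fs, -2.26 in RUNX1S291fs/Ezh2Δ/Δ, -3.08 in MDS and -3.89 in MDS/ML, and at -0.75 and -0.10 in the CD45.1+ cells of RUNX1S291fs and RUNX1S291fs/Ezh2Δ/Δ mice. Hoxa9 was thus lowest on the moribund arrays and next lowest in RUNX1S291fs/Ezh2Δ/Δ, with a stage effect of -1.64 (SE 0.53, limma adjusted p = 0.220). A further, dimmer Hoxa9 probe ran the same way, from -2.74 in RUNX1S291fs/Ezh2Δ/Δ to -4.12 in MDS and -5.46 in MDS/ML. Hoxa10 stood at -0.59 in WT, 0.88 in Ezh2Δ/Δ, -2.19 in RUNX1S291fs, -4.31 in RUNX1S291fs/Ezh2Δ/Δ, -6.75 in MDS and -6.36 in MDS/ML, and at -2.24 and -1.33 in the CD45.1+ cells of RUNX1S291fs and RUNX1S291fs/Ezh2Δ/Δ mice. Hoxa10, which acts in myeloid and megakaryocyte progenitors, was not well above background on the moribund arrays, with a stage effect of -3.56 (SE 1.14, limma adjusted p = 0.215). Hoxa6 stood at -3.05 in WT, -1.69 in Ezh2Δ/Δ, -2.58 in RUNX1S291fs, -3.03 in RUNX1S291fs/Ezh2Δ/Δ, -4.62 in MDS and -4.32 in MDS/ML, and at -2.78 and -2.68 in the CD45.1+ cells of RUNX1S291fs and RUNX1S291fs/Ezh2Δ/Δ mice. Hoxa6 was not well above background on the moribund arrays either (-1.92, SE 0.49, limma adjusted p = 0.124).

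Hoxa4 stood at -4.21 in WT, -3.74 in Ezh2Δ/Δ, -4.86 in RUNX1S291fs, -4.06 in RUNX1S291fs/Ezh2Δ/Δ, -4.95 in MDS and -5.12 in MDS/ML, and at -5.46 and -4.03 in the CD45.1+ cells of RUNX1S291fs and RUNX1S291fs/Ezh2Δ/Δ mice. Hoxa4 was dim throughout and the moribund arrays overlapped the others (stage effect -0.98, limma adjusted p = 0.513). Hoxb6 stood at -2.28 in WT, -2.73 in Ezh2Δ/Δ, -2.29 in RUNX1S291fs, -2.86 in RUNX1S291fs/Ezh2Δ/Δ, -4.27 in MDS and -5.16 in MDS/ML, and at -4.59 and -1.34 in the CD45.1+ cells of RUNX1S291fs and RUNX1S291fs/Ezh2Δ/Δ mice. Hoxb6 also overlapped, through the CD45.1+ cells of RUNX1S291fs mice (-2.02, limma adjusted p = 0.477). In all, both moribund arrays lay below each of the other 6 for 9 of the 13 members, against 17.4% of 13553 genes, and 7 of these 9 were well above background on neither moribund array, so that they had entered through arrays where they are high. The count is therefore a description.

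Hoxb4 stood at 1.60 in WT, 0.56 in Ezh2Δ/Δ, 0.71 in RUNX1S291fs, 1.67 in RUNX1S291fs/Ezh2Δ/Δ, 1.41 in MDS and 1.66 in MDS/ML, and at 1.30 and 1.47 in the CD45.1+ cells of RUNX1S291fs and RUNX1S291fs/Ezh2Δ/Δ mice. Hoxb4, whose forced expression expands blood stem cells, was well above background on all 8 arrays, between 0.56 and 1.67. Its moribund values lay inside the range of the others (stage effect 0.43, SE 0.53, limma adjusted p = 0.825). Hoxb3 stood at -1.17 in WT, -2.90 in Ezh2Δ/Δ, -1.93 in RUNX1S291fs, -1.06 in RUNX1S291fs/Ezh2Δ/Δ, -1.33 in MDS and -1.50 in MDS/ML, and at -2.43 and -1.81 in the CD45.1+ cells of RUNX1S291fs and RUNX1S291fs/Ezh2Δ/Δ mice. The moribund values lay inside the range here too (0.23, SE 0.66, limma adjusted p = 0.936), but the 2 probes of Hoxb3 disagreed. The dimmer probe, at -2.86 in WT and -4.86 in RUNX1S291fs/Ezh2Δ/Δ, was not well above background in MDS (-6.71) or MDS/ML (-6.32). The effects of both genes turned sign in some other fits, to -0.13 for Hoxb4 without the Ezh2Δ/Δ array and to -0.82 for Hoxb3 with its probes averaged.

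**Figure D3:**
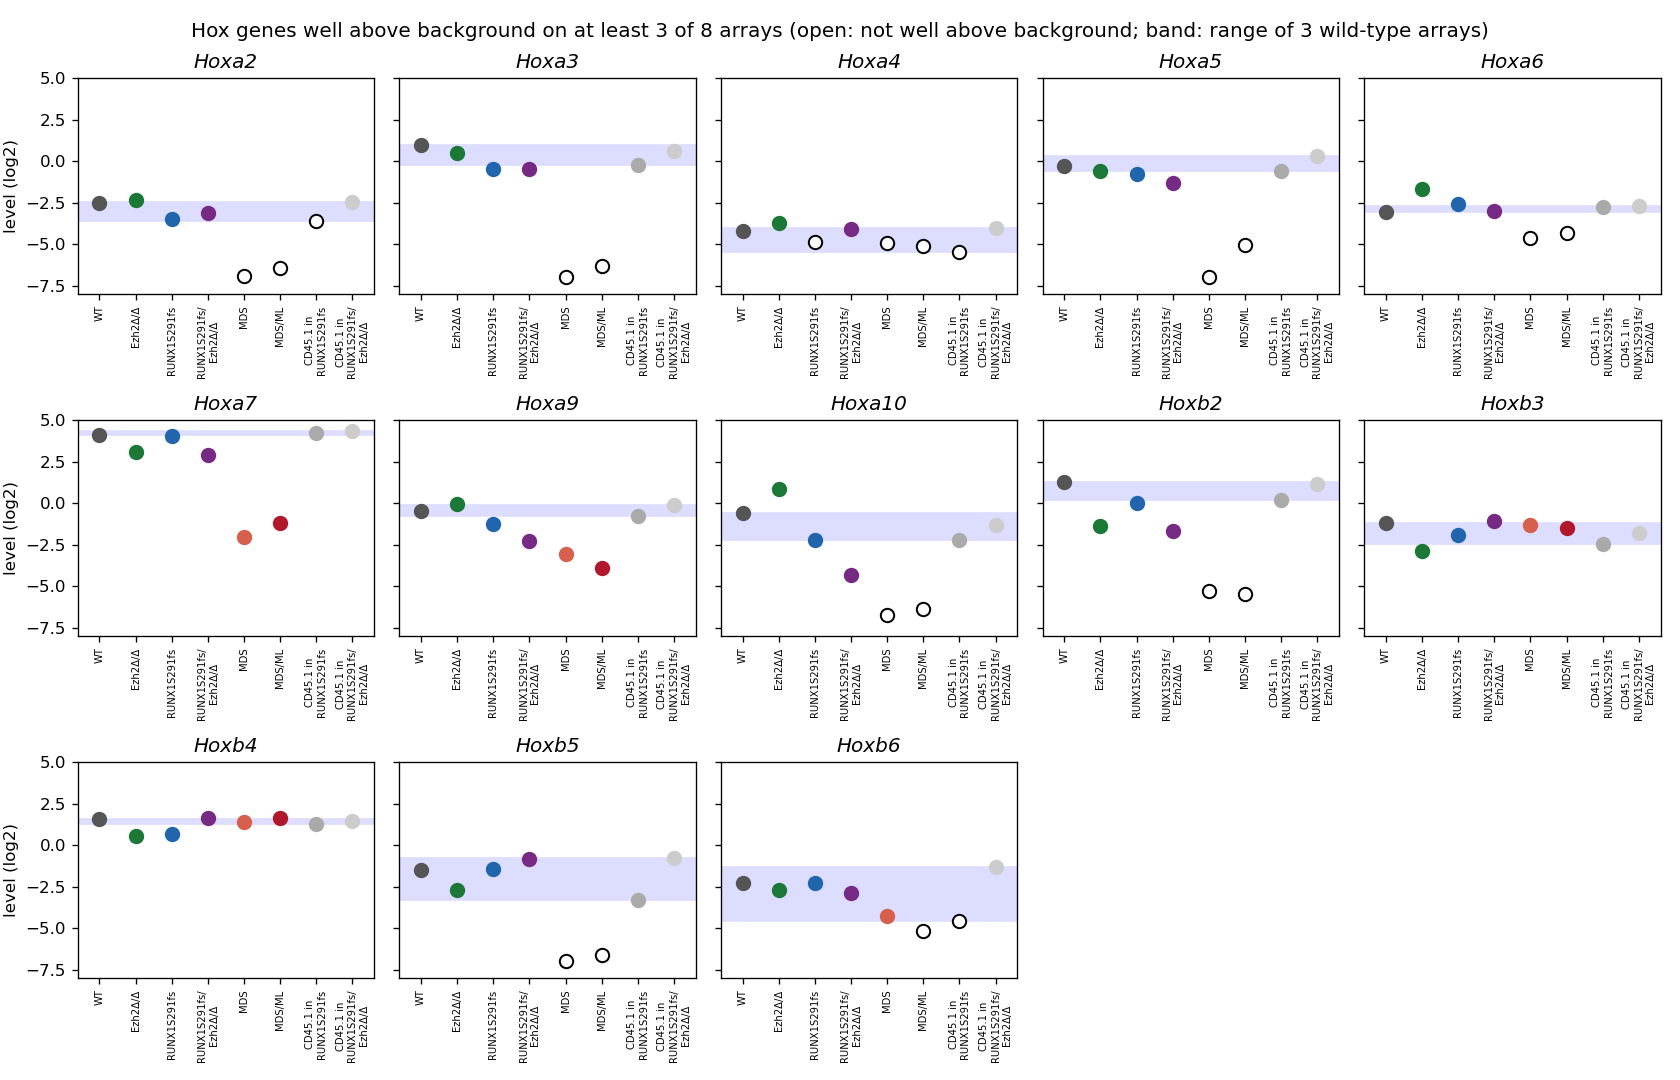
Level (vertical axis, log2 relative to the 75th percentile of the array) of the 13 Hox genes tested, 1 point an array; open points are not well above background and the band spans the 3 wild-type arrays. MDS and MDS/ML lie below the other arrays for 9 of the 13 genes, while Hoxb4 stays between 0.56 and 1.67.

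**Figure D4:**
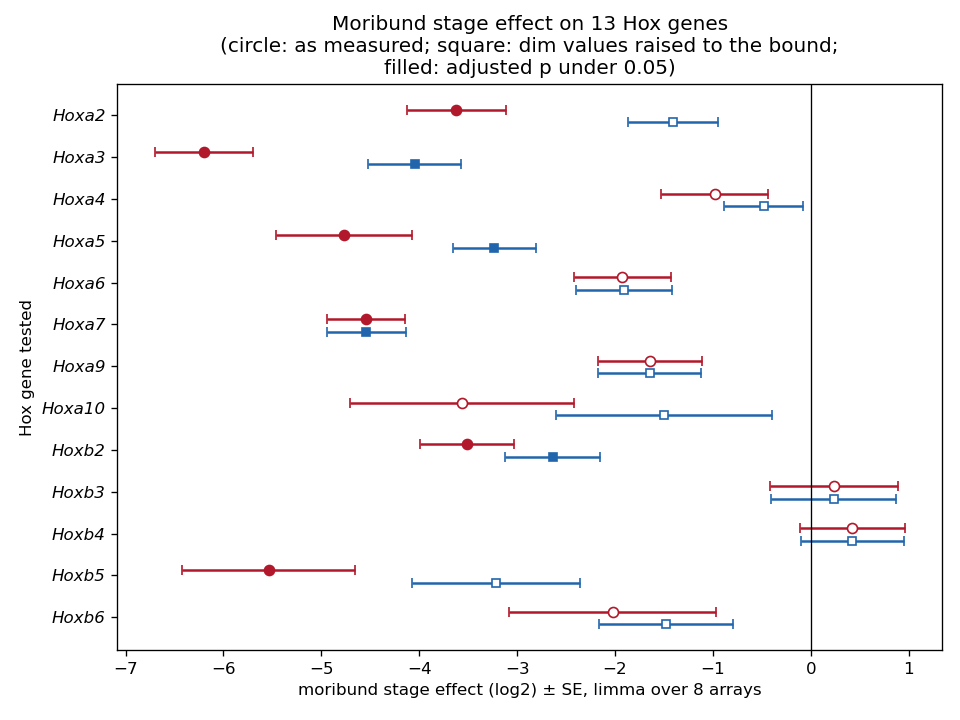
Moribund stage effect (horizontal axis, log2) with its SE from limma over 8 arrays for the 13 members tested, as measured (circles) and with dim values raised to the bound (squares); filled points have an adjusted p under 0.05. As measured 6 are filled, and 4 with the bound, Hoxa3, Hoxa5, Hoxa7 and Hoxb2.

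Since 5 of the 6 genes called were below the bound on the moribund arrays, the fit was also run with dim values raised to it, an alternative chosen after seeing the data. It called 4 members, against 1.68% of all genes tested. Their effects were -4.05 for Hoxa3, -3.23 for Hoxa5, -4.54 for Hoxa7 and -2.64 for Hoxb2. Hoxa2 (limma adjusted p = 0.218) and Hoxb5 (limma adjusted p = 0.127) were lost. Hoxa3, Hoxa5 and Hoxa7 were the members called with normexp background correction and with the slide as a block, 3 in each case. Of all genes tested, 2.13% were called with normexp and 0.546% with the slide as a block. No member was called, and no gene of those tested, without the month 4 RUNX1S291fs/Ezh2Δ/Δ array or on the 6 CD45.2+ arrays alone, where 10 of 13 members had an unadjusted limma p under 0.05 in each case, beside 1196 and 1766 of all genes. Over all alternatives the limma adjusted p ran from 0.0024 to 0.0899 for Hoxa7 (effect -4.96 to -3.90), from 0.00666 to 0.0899 for Hoxa3 (-6.70 to -2.36) and from 0.0118 to 0.240 for Hoxa5 (-5.74 to -1.74). For Hoxb2 it ran from 0.0187 to 0.357 (-3.68 to -1.02), for Hoxa2 from 0.0196 to 0.363 (-3.97 to -0.77) and for Hoxb5 from 0.0237 to 0.357 (-6.04 to -1.76). Leaving out WT or the CD45.1+ cells of RUNX1S291fs/Ezh2Δ/Δ mice left 3 calls each (0.517% and 0.598% of genes tested). Leaving out MDS leaves 1 moribund array, and the effect for Hoxa7 was then -4.12.

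The MDS and month 4 RUNX1S291fs/Ezh2Δ/Δ arrays shared a slide, and between these 2 arrays 8 of 14 members were at least 2-fold lower in MDS and 0 higher, where 19.9% of genes were lower and 10.6% higher. In MDS/ML, on a slide of its own, 9 of 13 were lower and 0 higher, against 15.2% and 9.78%. Hoxa2, Hoxa3, Hoxa5, Hoxa6, Hoxa7, Hoxb2, Hoxb5 and Hoxb6 were lower in both moribund mice, and Hoxa9 was lower in MDS/ML alone at this fold (3.09-fold, and 1.76-fold in MDS). The 2 comparisons share the RUNX1S291fs/Ezh2Δ/Δ array. A gene entered a comparison if it was well above background on either array. Hoxa2, Hoxa3, Hoxa4, Hoxa5, Hoxa6, Hoxa10, Hoxb2 and Hoxb5 entered both through the month 4 array alone, as did Hoxb6 against MDS/ML. Such members could not count as higher, so the counts are a description. Between MDS/ML and MDS, 0 of 6 members were 2-fold apart, where 11% of genes were higher and 9.04% lower. Against the range of the 3 wild-type arrays, 8 of 12 members lay at least 2-fold below it in MDS (12% of genes) and 0 above (6.57%), and in MDS/ML 7 of 10 lay below (7.97%) and 0 above (4.8%). The members below in both were Hoxa3, Hoxa5, Hoxa6, Hoxa7, Hoxa9, Hoxa10 and Hoxb2, with Hoxb5 in MDS. A gene entered here if it was well above background on the mutant array or on all 3 wild-type arrays. Members that entered through the wild-type arrays alone, where they are high, could not count as above. These counts are therefore a description.

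Other genes moved on the same moribund arrays. Of 12 LSK and stem cell markers tested, 4 fell and none rose, while Kit was at 5.11 and 4.97. Flt3, the receptor gene of multipotent progenitors, had a stage effect of -5.46 (limma adjusted p = 0.0126), Procr -5.85 (0.0327), Cd34 -3.70 (0.0115) and Ly6a -2.26 (0.0367). The stem cell factor gene Hlf was at -3.24 and -1.09 against 0.94 to 4.15 on the others. Megakaryocyte markers had a mean level of 4.33 and 4.50 against -1.34 to 1.86, with 1 of 7 tested called higher (Clec1b, 5.80, limma adjusted p = 0.0154). Mast cell markers averaged 0.15 in MDS and -2.11 in MDS/ML, inside the range of the month 4 arrays (-2.96 to 3.11). Of 7 tested, 1 was called, the protease gene Tpsb2, with an effect of -4.08 (limma adjusted p = 0.0474). Tpsb2 was at -1.15 in MDS and -1.76 in MDS/ML, against -1.69 in WT. The 7 effects had a median of -4.08, but Cpa3 was highest on the moribund arrays (8.47 and 6.85 against 1.45 to 6.76). Neutrophil markers averaged 3.99 in MDS, inside the range of the month 4 arrays (-0.91 to 4.68), and -3.30 in MDS/ML, below it. Of 9 stroma markers, 4 were well above background in MDS and 5 in MDS/ML, against 4 to 6 on the others, and of 6 endothelium markers 3 on each moribund array, against 3 or 4. Lepr, Pdgfrb, Kdr and Pecam1 were well above background on all 8 arrays, and Prrx1, Pdgfra and Cdh5 on none. The part of these cell type markers in the Hox values was not tested.

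**Figure D5:**
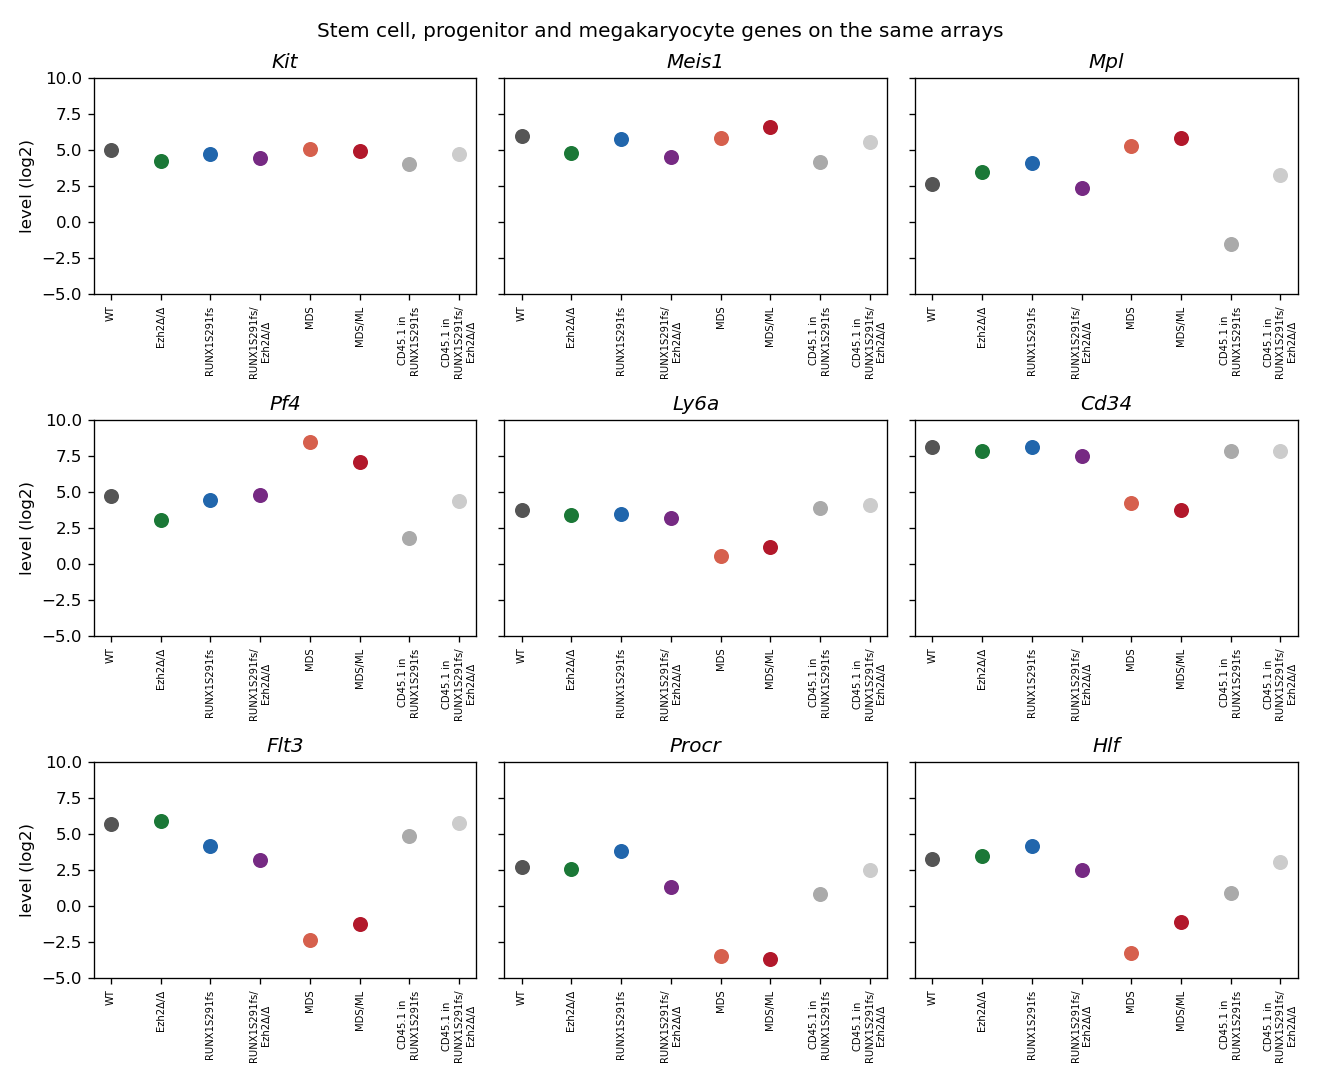
Levels (vertical axis, log2 relative to the 75th percentile of the array) of 9 marker genes of stem cells, progenitors and megakaryocytes, 1 point for each of 8 arrays. In MDS and MDS/ML, Kit and Meis1 lie within or above the range of the other arrays, Ly6a, Cd34, Flt3, Procr and Hlf lie below the other arrays there, and Pf4 (8.50 and 7.13) lies above.

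None of the genes tested that act with or upon Hox genes passed in any term of the fit. Of Hox cofactors 8 of 10 were tested and 0 were called, with Meis1 at 5.84 in MDS and 6.64 in MDS/ML (4.18 to 5.96 on the others; stage effect 1.44, SE 0.69, limma adjusted p = 0.433). Of 22 activators 21 had a named probe, and MLL (Kmt2a) itself was not among them. Of the 21, including MLL partners Men1, Psip1 and Dot1l, 18 were tested and 0 called. Mllt6, a partner gene of MLL fusions, was at 0.97 and 0.47 in the moribund mice and 2.45 to 3.75 elsewhere. The direct activators Cdx1, Cdx2 and Cdx4 were not well above background on any array. Of Polycomb genes 26 of 27 were tested and 0 called, with Pcgf5 at 2.36 and 2.71 in the moribund mice against 4.03 to 4.35. Of 21 genes next to the clusters with a probe, 3 on each side, 20 were tested and 0 called; Snx10, beside cluster A, was at 1.24 and 1.70 against 2.66 to 3.46 (limma adjusted p = 0.162).

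Ezh2 deletion called 0 of the 13 members, and 0% of all genes tested passed, with 321 at an unadjusted p under 0.05. Hoxb2 had the smallest p (effect -2.05, SE 0.39, unadjusted p = 0.00116), followed by Hoxa7 (-1.14, SE 0.33, unadjusted p = 0.00977) and Hoxa4 (0.82, SE 0.45, unadjusted p = 0.110), each with a limma adjusted p of 1.00. Against WT on another slide, 3 of 17 members were at least 2-fold higher in Ezh2Δ/Δ (7.83% of genes) and 7 lower (3.83%). The higher ones were Hoxa6 (2.57-fold), Hoxa10 (2.77-fold) and Hoxb7 (at least 6.48-fold), and the lower ones included Hoxb2 (6.43-fold), Hoxb3 (3.33-fold), Hoxb5 (2.28-fold), Hoxb4 (2.05-fold) and Hoxa7 (2.01-fold) beside Hoxc4 and Hoxc6. Hoxc4, Hoxc6 and Hoxc9 entered through WT alone and could not count as higher. Hoxb7 entered through Ezh2Δ/Δ alone and could not count as lower. When all 3 wild-type arrays set the range, Ezh2Δ/Δ lay at least 2-fold above it for Hoxa10 (2.57% of genes) and below it for Hoxa7 and Hoxb2 (0.745%). B cell markers averaged 3.15 on the Ezh2Δ/Δ array, against -3.89 to 0.64 on the others, and 10 of 10 were well above background there, and neutrophil markers averaged 3.29 against -0.50 in WT. Their part in these values was not tested.

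RUNX1S291fs likewise called 0 of 13 members, against 0.0148% of all genes tested, which is 2 genes, both lower; 806 genes had an unadjusted p under 0.05. The smallest p values were those of the leukaemia-associated Hoxa9 (effect -1.36, SE 0.44, limma adjusted p = 0.549), Hoxa10 (-2.56, SE 0.93, 0.668) and Hoxa3 (-0.92, SE 0.41, 0.894). Against WT on another slide, 0 of 16 members were 2-fold higher in RUNX1S291fs (8.57% of genes) and 5 were lower (5.76%). The lower ones were Hoxa3 (2.70-fold), Hoxa10 (3.04-fold), Hoxb2 (2.42-fold), Hoxc4 and Hoxc6. Hoxa4, Hoxc4, Hoxc6 and Hoxc9 entered through WT alone and could not count as higher. Against the CD45.1+ cells of RUNX1S291fs mice, on the same slide, Hoxb5 (3.62-fold) and Hoxb6 (at least 2.28-fold) were higher and 0 of 12 lower (8.73% and 12.4% of genes). Hoxa2 and Hoxb6 entered here through the RUNX1S291fs array alone and could not count as lower. No member lay 2-fold outside the range of the 3 wild-type arrays, where 2.52% of genes lay above and 1.73% below. Mast cell markers averaged 2.00 in RUNX1S291fs and -2.96 in WT, neutrophil markers 1.39 and -0.50, and monocyte markers 3.33 and 2.00, and their part in these values was not tested.

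With both lesions at month 4, no Hox gene was 2-fold higher than in WT and several genes of cluster A and Hoxb2 were lower. Of 16 members 8 were at least 2-fold lower in RUNX1S291fs/Ezh2Δ/Δ than in WT on the same slide (7.9% of genes) and 0 higher (10.6%). Hoxc4, Hoxc6 and Hoxc9 entered through WT alone and could not count as higher, and Hoxc4 and Hoxc6 are among the 8. The largest differences with a signal on both arrays were Hoxa10 (13.1-fold), Hoxb2 (7.94-fold) and Hoxa9 (3.44-fold), followed by Hoxa3 (2.63-fold), Hoxa7 (2.25-fold) and Hoxa5 (2.02-fold). Hoxa7, Hoxa9, Hoxa10 and Hoxb2 also lay at least 2-fold below all 3 wild-type arrays (2.29% of genes), and none above (3.65%). Against the CD45.1+ cells of RUNX1S291fs/Ezh2Δ/Δ mice, on another slide, 9 of 18 were lower and 0 higher (9.41% and 9.26% of genes). Hoxb8, Hoxb9, Hoxc4, Hoxc6 and Hoxc9 entered through the CD45.1+ array alone, where they are high, and could not count as higher. Hoxb9 and Hoxc6 are among the 9. The counts against WT and against the CD45.1+ cells are therefore a description. Hoxa10 was lower by 7.88-fold, Hoxb2 by 7.14-fold and Hoxa9 by 4.44-fold. On the same arrays, mast cell markers averaged 3.11 in RUNX1S291fs/Ezh2Δ/Δ and -2.96 in WT, neutrophil markers 4.68 and -0.50, and monocyte markers 4.86 and 2.00. Their part in these values was not tested.

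Hoxa10 was the member that differed most between single and joint lesions. It was the highest of 8 arrays in Ezh2Δ/Δ (0.88) and the lowest of the month 4 arrays in RUNX1S291fs/Ezh2Δ/Δ (-4.31), a 36.4-fold difference. Against Ezh2Δ/Δ on another slide, 4 of 14 members were at least 2-fold lower in RUNX1S291fs/Ezh2Δ/Δ (11% of genes). These were Hoxa6, Hoxa9, Hoxa10 and Hoxb7, while Hoxb3, Hoxb4 and Hoxb5 were higher (10.9%). Hoxb7 entered through Ezh2Δ/Δ alone and could not count as higher. Against RUNX1S291fs, also on another slide, Hoxa7, Hoxa9, Hoxa10 and Hoxb2 were lower, 4 of 13 (8.47%), and 0 higher (8.08%). Hoxa4 entered there through RUNX1S291fs/Ezh2Δ/Δ alone and could not count as lower. A fit with the product of both genotypes, with 3 residual degrees of freedom, called 0 of 13 members and 0% of genes, with 886 at an unadjusted p under 0.05. Its smallest p values were those of Hoxa10 (-4.38, SE 1.04, limma adjusted p = 0.688), Hoxb4 (1.86, SE 0.59, 0.688) and Hoxa6 (-1.59, SE 0.61, 0.751).

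The 2 arrays of wild-type competitors came from mice of different groups. They also differed in brightness, with a 75th percentile signal of 186 in RUNX1S291fs mice and 429 in RUNX1S291fs/Ezh2Δ/Δ mice. The host marrow, the brightness and the sample cannot be told apart in their differences. Of 18 members, 4 were at least 2-fold lower in the CD45.1+ cells of RUNX1S291fs mice than in those of RUNX1S291fs/Ezh2Δ/Δ mice on the same slide (6.78% of genes) and 0 higher (9.37%). These were Hoxb5 (5.77-fold), Hoxb6 (at least 4.42-fold), Hoxc6 (at least 2.55-fold) and Hoxa2 (at least 2.00-fold). Hoxa2, Hoxa4, Hoxb6, Hoxb8, Hoxb9, Hoxc4, Hoxc6 and Hoxc9 entered through the array of RUNX1S291fs/Ezh2Δ/Δ mice alone, where they are high. Such members could not count as higher, so the counts are a description of these 2 arrays. Hoxa7, by contrast, differed by 0.07 units between these arrays and by 0.23 units over all 3 wild-type arrays, and Hoxb4 by 0.30 units over the 3.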

How the data were processed

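Agilent 1-colour mouse arrays (design 028005, 20 ng of total RNA, Cy3) were read by the authors with Feature Extraction 10.7.1.1, per the file headers and the labels' protocols. The deposited scanner files give intensity values, of which the processed signal is already background-subtracted within the array, and 0 or 1 calls against background. The deposited series table holds a linear signal that equals the processed signal divided by 1 factor an array. Probes carry the mm9 design's annotation, per the file headers, and were named through their transcript accessions with RefSeq (27235 of 55681 probes).

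Control spots and outlier spots (0.177% to 0.261% of spots an array) were left out, spots of a probe averaged, log2 taken and the 75th percentile of each array subtracted. limma 3.58.1 (R 4.3.3) was fitted to all 8 arrays, and the fit was tested on simulated data; p-values measure the spread left around the additive terms, since no group has a second array. Python 3.11.15 did the rest. Members well above background on at least 3 arrays have their values given in every array, and full statistics go to members that pass and to the 3 smallest in p for each term. The members and the lists were chosen with earlier results of these data known. The remaining Hox gene of the 39 is not reported here. Alternatives were background correction, scaling, the series table, the filter, the probe rule, the slide, the arrays in the fit, the fold and the call. Normexp used the median spot signal, as the scanner files hold no mean signal. The number of arrays limits the precision.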

Additional observations from a re-analysis of the deposited data

How the results depend on the processing

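The count of 6 Hox genes called for the moribund stage stayed at 6 with quantile scaling, the authors' series table or probes averaged. It was also 6 with a filter of at least 1 array (of 20 tested). Of all genes tested, 1.46% to 1.84% were called in these fits. The count was 3 with normexp background correction (2.13% of genes tested) and 3 with the slide as a block (0.546%). It was 1 when genes had to be well above background on all 8 arrays (4 members tested, 1.35% of genes). On the CD45.2+ arrays alone it was 0, as it was for all genes. With each array left out in turn it ran from 0, without RUNX1S291fs/Ezh2Δ/Δ, to 6. The 0 calls for Ezh2 deletion, RUNX1S291fs and their product held in every fit run. For Hoxb3 the stage effect turned to -0.82 with probes averaged, -0.16 with the slide as a block and -0.36 without Ezh2Δ/Δ or without RUNX1S291fs, and for Hoxb4 to -0.13 without either of these, with all arrays left out in turn giving up to 1.62 and 1.73 (without RUNX1S291fs/Ezh2Δ/Δ); the cause was not tested. Under the looser scanner call (positive and significant), 21 members were detected in WT, 22 in Ezh2Δ/Δ, 19 in RUNX1S291fs and 19 in RUNX1S291fs/Ezh2Δ/Δ. The CD45.1+ cells showed 19 in RUNX1S291fs mice and 23 in RUNX1S291fs/Ezh2Δ/Δ mice. MDS, with 16, and MDS/ML, with 14, again had the fewest but lay nearer to the others than under the main call. The share over all genes is not given for this call. Normexp, whose offset of 50 shrinks the differences of dim probes, left fewer members 2-fold apart: 5 for Ezh2Δ/Δ and 3 for RUNX1S291fs against WT, 2 for RUNX1S291fs/Ezh2Δ/Δ against RUNX1S291fs, 5 for MDS and 5 for MDS/ML against RUNX1S291fs/Ezh2Δ/Δ, 0 and 5 for RUNX1S291fs and RUNX1S291fs/Ezh2Δ/Δ against the CD45.1+ cells of mice of that group, and 1 between the CD45.1+ arrays. It moved the median gene by -0.16 in the CD45.1+ cells of RUNX1S291fs mice and by under 0.1 elsewhere. At 4-fold the counts, in the same order, were 3, 1, 1, 5, 5, 0, 4 and 2, with 4 for RUNX1S291fs/Ezh2Δ/Δ against WT and 3 against Ezh2Δ/Δ. Between MDS/ML and MDS the count was 1 with probes averaged, and 1 with dim values kept as measured, which gave 9 between the CD45.1+ arrays. With the range set without the CD45.1+ cells of RUNX1S291fs mice, 7 members lay outside it in Ezh2Δ/Δ, 3 in RUNX1S291fs, 7 in RUNX1S291fs/Ezh2Δ/Δ and 11 in MDS/ML. At 4-fold, 0 did in Ezh2Δ/Δ and 1 in RUNX1S291fs/Ezh2Δ/Δ. No share over all genes is given beside these counts of members 2-fold or 4-fold apart or outside the range. They therefore do not show whether Hox genes moved more than other genes at these settings. No paired analysis was possible because each group has 1 array, and the labels do not say whether CD45.2+ and CD45.1+ cells came from the same individual mice. Signal over background limits the dim members, whose values are bounds.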
